A study of Mus musculus with 6 samples.

Results

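Midnolin (Midn) and 3 genes beside it on mouse chromosome 10, Stk11, Atp5d and Cirbp, were followed through NMDA stimulation of cortical neurons. The 4 were taken by their symbol from the 38293 rows of the deposited count table, and all 4 had enough reads to be among the 14642 genes tested. They were chosen by the change of Midn between stimulated and untreated neurons in these same libraries and by their place next to it, with the changes of the neighbours also known, so their values in that contrast are given as a description and without p-values. The stimulated group (NMDA, 3 libraries) had received 50 µM NMDA, an agonist of the NMDA class of glutamate receptors, for 10 minutes and had then recovered without the drug for 50 minutes. The untreated group (control, 3 libraries) had received nothing. Both groups were wild-type primary cortical neurons of Swiss-Webster mice, dissociated at embryonic day 16 and kept to day 13 in vitro. By its title the series is about cohesin and how transcription and supercoiled DNA act on it in neurons. The question put to these genes is whether neighbours of a stimulated gene move with it.

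Midnolin is a nuclear protein with a ubiquitin-like domain that brings short-lived transcription regulators to the proteasome for destruction without prior ubiquitination, a role described in cultured cell lines. Its known substrates include the products of immediate early genes, which stimulated neurons transcribe within minutes. Its neighbours do unrelated work. Stk11 encodes LKB1, the kinase that switches on AMPK and its relatives and that sets axon identity in cortical neurons. Atp5d encodes the delta subunit of the mitochondrial ATP synthase, part of the central stalk. Cirbp encodes a cold-inducible RNA-binding protein whose transcript rises when cells are mildly cooled.

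On GRCm38 the 4 genes run in the same direction, on the plus strand, in the order Stk11, Atp5d, Midn and Cirbp. Stk11 (ENSMUSG00000003068) lies at chr10:80115803-80130682, Atp5d (ENSMUSG00000003072) at chr10:80138632-80145818, Midn (ENSMUSG00000035621) at chr10:80148272-80158368 and Cirbp (ENSMUSG00000045193) at chr10:80165985-80172786. The gap before Midn, to the end of Atp5d, is 2453 bases, and the gap after it, to the start of Cirbp, is 7616 bases. Between Stk11 and Atp5d lies Cbarp, a gene on the minus strand for a regulator of voltage-gated calcium channels. Its exons share 232 bases with those of Stk11 and 68 bases with those of Atp5d, and since the strand setting of the authors' counting is not given in the sources used here, reads in those bases cannot be assigned with certainty. No annotated gene overlaps Midn or Cirbp.

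The start regions of the 4 genes are shown because Midn, the gene that moved most, has 2 annotated starts and because its neighbours each have their own. Each window runs from 250 bases before to 50 bases after a RefSeq start (build GRCm38.p6, plus strand), and 7 such windows matched the 4 genes; 5 are printed. Capitals mark the letters TGACG (the core of the cAMP response element, CRE, bound by CREB, a factor that neuronal activity switches on), TGANTCA (AP-1), GCGNGGGCG (EGR), the CArG box (bound by SRF) and TCCCCGCC, an element described in the Cirbp promoter as responsive to mild cold. Both strands were searched, so a TGACG on the minus strand reads CGTCA, and the marked matches in these windows do not overlap each other.
Midn upstream start, chr10:80148022-80148321: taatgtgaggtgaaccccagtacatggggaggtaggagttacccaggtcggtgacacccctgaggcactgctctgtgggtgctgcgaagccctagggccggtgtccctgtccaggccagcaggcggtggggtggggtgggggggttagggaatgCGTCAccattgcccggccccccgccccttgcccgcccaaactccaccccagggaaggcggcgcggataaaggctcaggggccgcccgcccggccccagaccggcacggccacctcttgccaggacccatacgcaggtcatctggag
Midn internal start, chr10:80149432-80149731: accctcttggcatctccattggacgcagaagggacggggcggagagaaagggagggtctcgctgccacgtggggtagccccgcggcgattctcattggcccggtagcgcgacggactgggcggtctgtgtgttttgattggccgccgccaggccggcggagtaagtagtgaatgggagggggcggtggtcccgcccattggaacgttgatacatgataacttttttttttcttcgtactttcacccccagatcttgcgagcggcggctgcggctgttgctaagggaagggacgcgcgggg
Cirbp first start, chr10:80167589-80167888: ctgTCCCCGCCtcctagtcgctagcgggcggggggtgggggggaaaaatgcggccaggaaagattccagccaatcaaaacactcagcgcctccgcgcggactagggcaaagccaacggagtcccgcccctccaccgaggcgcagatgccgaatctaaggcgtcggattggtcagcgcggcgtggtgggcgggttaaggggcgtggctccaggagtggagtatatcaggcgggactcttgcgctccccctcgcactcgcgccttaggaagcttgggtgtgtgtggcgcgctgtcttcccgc
Atp5d first start, chr10:80142025-80142324: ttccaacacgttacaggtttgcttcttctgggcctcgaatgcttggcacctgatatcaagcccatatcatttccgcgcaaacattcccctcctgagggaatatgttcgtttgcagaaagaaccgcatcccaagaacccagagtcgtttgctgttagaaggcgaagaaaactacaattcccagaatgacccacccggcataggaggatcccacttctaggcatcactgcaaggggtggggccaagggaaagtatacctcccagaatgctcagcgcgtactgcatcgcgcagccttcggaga
Stk11 start, chr10:80115545-80115844: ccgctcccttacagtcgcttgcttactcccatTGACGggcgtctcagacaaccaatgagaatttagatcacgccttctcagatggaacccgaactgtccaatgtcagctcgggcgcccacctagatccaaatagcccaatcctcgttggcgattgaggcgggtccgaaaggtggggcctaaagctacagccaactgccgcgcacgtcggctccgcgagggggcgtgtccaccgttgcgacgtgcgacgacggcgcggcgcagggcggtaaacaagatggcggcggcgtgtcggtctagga

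The upstream Midn window held 1 TGACG core, on the minus strand at positions -96 to -92 from the start, and the Stk11 window held 1 on the plus strand at positions -218 to -214. The second Cirbp window, which is not printed, also held 1, on the minus strand at positions -60 to -56. That core is common: 20.8% of all 32851 RefSeq start windows held it on either strand. The internal Midn window held none of the marked motifs. It held the letters CACGTG, an E-box, which 7.15% of windows held, and 4 matches to the CCAAT box, which 37.4% of windows held at least once; the Stk11 window held 3 such matches and the first Cirbp window 2. The first Cirbp window opened with TCCCCGCC, at positions -247 to -240, a run of letters found in 5.38% of windows. No window of Atp5d held a marked motif, and no window of the 4 genes held the full CRE (TGACGTCA, in 1.79% of windows), AP-1 (7.81%), EGR (5.55%) or CArG (1.63%) letters. These matches describe letters in the windows and say nothing of binding. The counts are per gene, so reads from the separate starts of Midn could not be told apart.

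Midn stood higher in every stimulated library than in any untreated one. It had 120, 125 and 123 CPM (counts scaled to library size, with TMM factors) in NMDA replicates 1, 2 and 3, against 81.3, 89.1 and 78.5 CPM in control replicates 1, 2 and 3. The stimulated libraries lay within a narrow band and the groups did not overlap. The means were 123 ± 2.31 CPM in NMDA and 83.0 ± 5.49 CPM in control libraries (SD, n = 3 each), a log2 fold change of 0.56 ± 0.08 (SE), or 1.48-fold. By this value Midn ranked 267th from the top of the 14642 genes tested.

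Both upstream neighbours were also higher in NMDA libraries, by less. Atp5d had 76.7, 81.1 and 87.1 CPM in NMDA replicates 1, 2 and 3, against 69.4, 62.8 and 61.7 CPM in control replicates 1, 2 and 3. The lowest stimulated library was above the highest untreated one. The log2 fold change was 0.34 ± 0.09 (SE), or 1.26-fold. Stk11 was the least read of the 4, with 38.0, 45.6 and 44.9 CPM in NMDA replicates 1, 2 and 3, against 34.3, 36.1 and 33.7 CPM in control replicates 1, 2 and 3. Its groups did not overlap either, with NMDA replicate 1 the closest to the untreated libraries. The log2 fold change was 0.30 ± 0.10 (SE), or 1.23-fold.

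Cirbp, the neighbour downstream of Midn, did not separate. It had 83.0, 65.8 and 69.9 CPM in NMDA replicates 1, 2 and 3, against 77.8, 64.3 and 58.1 CPM in control replicates 1, 2 and 3. The ranges overlapped, and replicate 1 was the highest library of both groups. The log2 fold change was 0.13 ± 0.13 (SE), with a 95% interval from -0.16 to 0.41. A rise as large as that of Atp5d lies inside this interval. Leaving out one library at a time moved the log2 fold change between 0.04 (without NMDA replicate 1) and 0.25 (without control replicate 1). With the replicate number as a block in the fit the SE was smaller (0.13 ± 0.07), and no interval was computed for that fit.

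**Figure D1:**
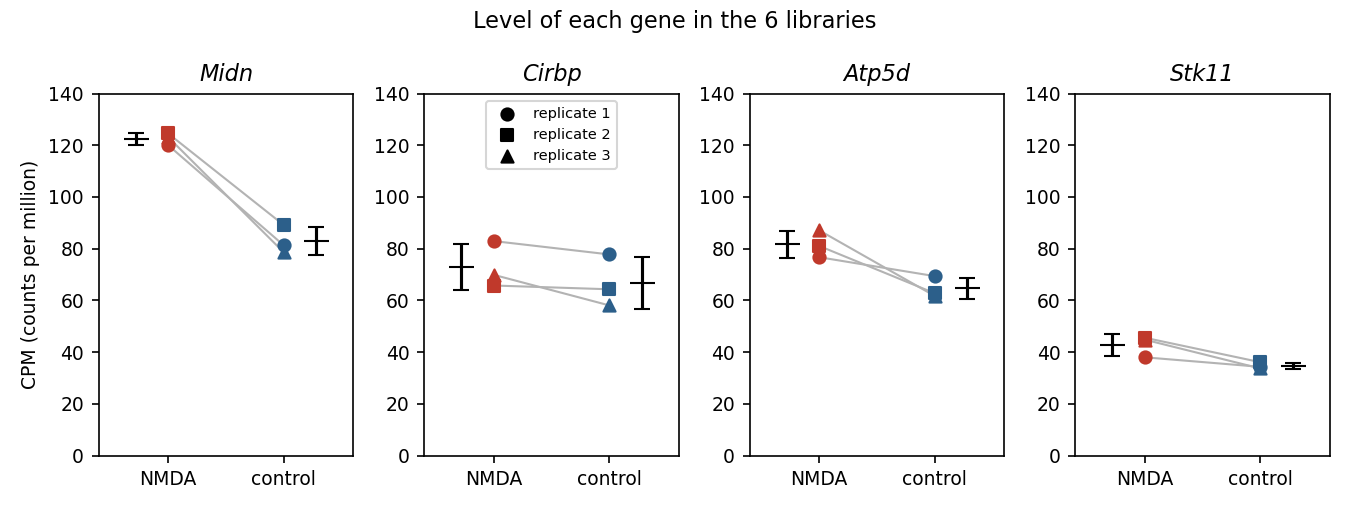
CPM of Midn, Cirbp, Atp5d and Stk11 in each NMDA library (red) and each control library (blue), with grey lines joining libraries of the same replicate number and black bars for the group mean ± SD (n = 3). The NMDA libraries of Midn, Atp5d and Stk11 lie above all control libraries, and those of Cirbp overlap them.

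Of the 4 members, Midn alone was past an edgeR adjusted p of 0.05, beside 0.43% of all genes tested (0.376% higher and 0.0546% lower); the members were chosen with this contrast known, so nothing is read from the count. Higher without overlap were 3 of 4, beside 8.18% of all genes. Libraries of the same replicate number deviated together. With that number as a block Midn, Atp5d and Stk11 were past the threshold, all higher, and Cirbp was not. Beside this, 14% of all genes were past it (5.65% higher and 8.35% lower). Within replicate numbers 1, 2 and 3 the log2 difference of NMDA over control was 0.56, 0.48 and 0.65 for Midn, 0.14, 0.37 and 0.50 for Atp5d, 0.15, 0.34 and 0.41 for Stk11 and 0.09, 0.03 and 0.27 for Cirbp. All 4 genes were higher in NMDA in each pair, and Atp5d and Stk11 both had their smallest difference in pair 1. Without the block Midn was past the threshold when NMDA replicate 1 was left out and not when any of the other 5 libraries was.

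The ratio of Midn to a neighbour within a library shows how far the neighbour kept step, and is free of library scaling. The log2 ratio of Midn to Cirbp was 0.53, 0.92 and 0.82 in NMDA replicates 1, 2 and 3, against 0.06, 0.47 and 0.44 in control replicates 1, 2 and 3. It was higher in NMDA by 0.47, 0.45 and 0.38 within pairs, and the groups did not overlap. The log2 ratio of Midn to Stk11 was 1.66, 1.45 and 1.46 in NMDA replicates 1, 2 and 3, against 1.24, 1.30 and 1.22 in control replicates 1, 2 and 3, again without overlap. The log2 ratio of Midn to Atp5d was 0.65, 0.62 and 0.50 in NMDA replicates 1, 2 and 3, against 0.23, 0.51 and 0.35 in control replicates 1, 2 and 3. Here the ranges met, with NMDA replicate 3 just below control replicate 2. Midn gained on all 3 neighbours in each pair, by 0.11 to 0.42 on Atp5d and by 0.15 to 0.42 on Stk11 (log2). Midn was chosen by its change in these same libraries, which favours a gain, so the ratios are a description only.

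**Figure D2:**
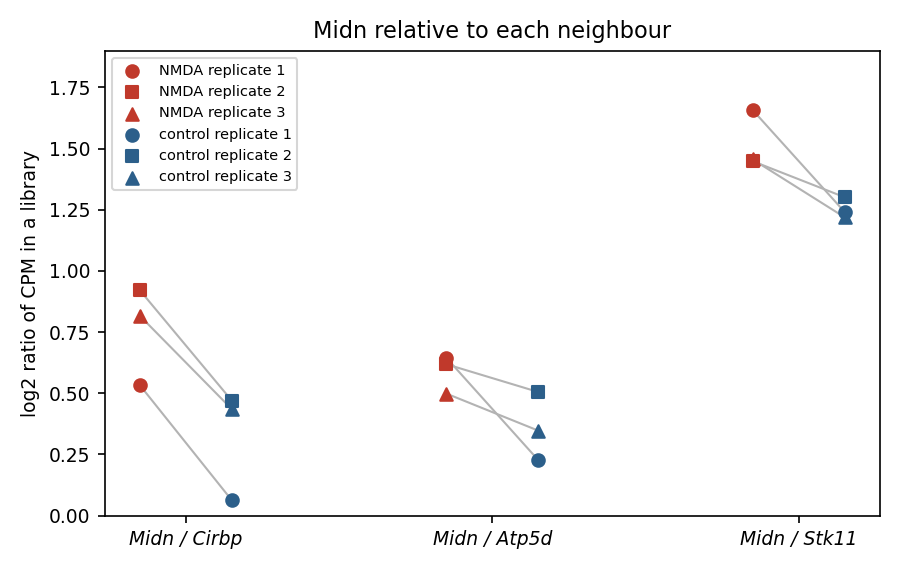
Log2 ratio of Midn CPM to the CPM of Cirbp, Atp5d or Stk11 in each NMDA library (red) and control library (blue), with grey lines joining libraries of the same replicate number. Every NMDA point lies above the control point it is joined to, and the ratio to Atp5d is the one whose groups overlap. Midn was chosen by its change in this contrast, so the ratios are a description only.

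Levels of the 4 genes were compared per kilobase of exon. Midn averaged 28.5 ± 0.54 CPM per kilobase in NMDA and 19.3 ± 1.27 in control libraries, Cirbp 27.99 ± 3.44 in NMDA and 25.6 ± 3.87 in control, Atp5d 42.3 ± 2.71 in NMDA and 33.5 ± 2.16 in control, and Stk11 9.35 ± 0.91 in NMDA and 7.58 ± 0.27 in control (SD, n = 3 each). Atp5d was the most abundant and Stk11 the least in both groups. In control libraries Midn stood below Cirbp without overlap, and in NMDA libraries the ranges of Midn (27.9 to 28.9) and Cirbp (25.3 to 31.9) overlapped. The order depends on the length used: over the mean length of the annotated transcripts Cirbp came first in both groups. By that length Midn stayed below Cirbp without overlap in NMDA libraries too (79.9 to 82.9 against 86.0 to 108 CPM per kilobase).

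The other genes of the neighbourhood lay on both sides of 0. Of 27 other annotated genes with any part within 200 kb of Midn, 22 were tested, and these were taken by position rather than by value. None passed an edgeR adjusted p of 0.05 without the block, where 0.43% of all genes did, and limma-voom called 0. The DESeq2 Wald test gave 20 of them an adjusted p and called 1, Pwwp3a, where it called 306 of 13788 genes over all. In edgeR 3 had an unadjusted p under 0.05. The share of all genes under that unadjusted threshold was not computed, so nothing is read from such counts here or below. Their median log2 change was -0.03, beside -0.01 over all genes tested, with 9 above and 13 below 0. The groups did not overlap in 4 genes that were higher (background 8.18%) and 3 that were lower (background 11.1%). The other 5 were not tested: Grin3b, Arhgap45 and Plk5 had 17, 7 and 29 reads over all libraries, an snRNA gene had 0, and a miRNA gene was not analysed here.

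No gene directly next to the 4 members passed in edgeR with or without the block. Cbarp, wedged between Stk11 and Atp5d, had 80.1, 68.7 and 68.1 CPM in NMDA replicates 1, 2 and 3, against 71.2, 62.9 and 70.8 CPM in control replicates 1, 2 and 3. The groups overlapped, and the log2 fold change without the block was 0.08 ± 0.10 (SE, edgeR adjusted p = 0.75). Its 95% interval, from -0.13 to 0.30, still holds a change of nearly the size seen in Stk11. With the block the change was 0.08 ± 0.07 (SE), and no interval was computed for that fit. Fam174c, the next gene downstream of Cirbp, averaged 2.32 ± 0.20 CPM in NMDA and 2.38 ± 0.39 CPM in control libraries (SD, n = 3 each; log2 -0.04 ± 0.24, edgeR adjusted p = 0.96). Sbno2, a minus-strand gene for a transcriptional coregulator upstream of Stk11, averaged 9.21 ± 0.28 CPM in NMDA and 11.4 ± 2.63 CPM in control libraries (log2 -0.31 ± 0.17, edgeR adjusted p = 0.45).

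**Figure D3:**
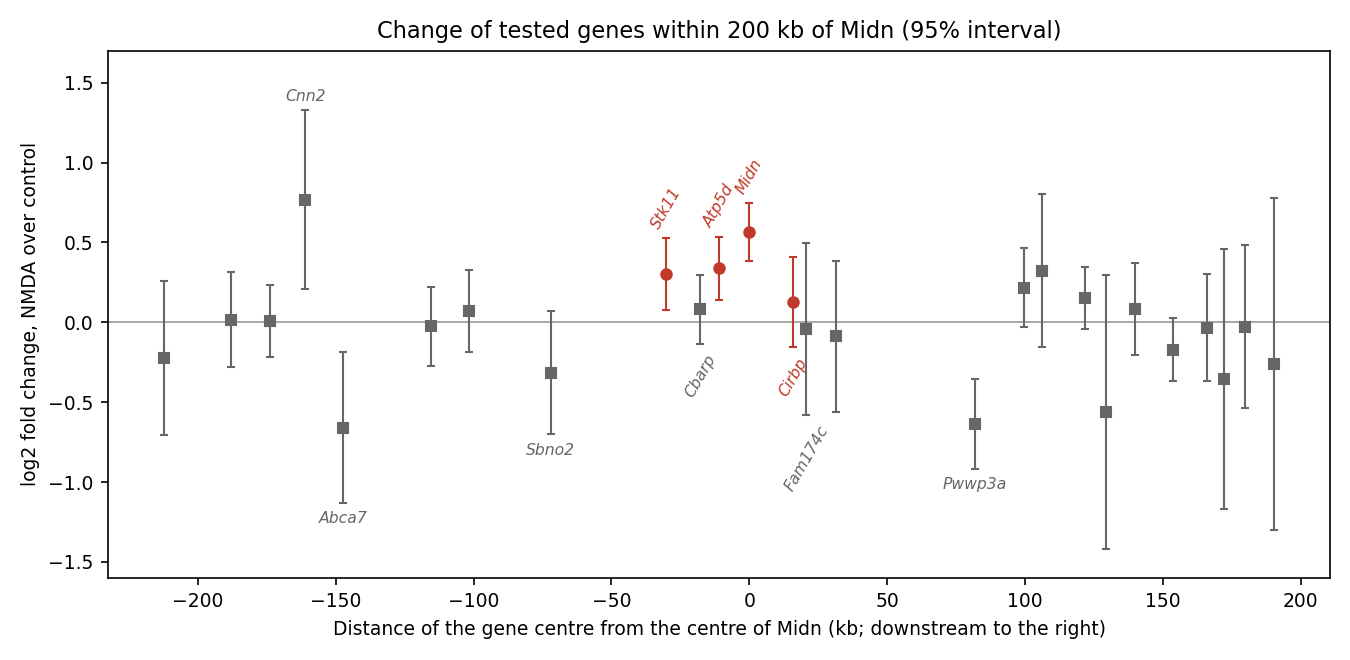
Log2 fold change of NMDA over control for the 26 tested genes within 200 kb of Midn (4 members in red, 22 others in grey) against the distance of the gene's centre from the centre of Midn in kb; bars are 95% intervals from the edgeR fit. Midn has the highest value among the genes next to it, and Cnn2, Abca7 and Pwwp3a stand apart farther out.

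With the replicate number as a block, 3 of the 22 passed, beside 14% of all genes: 1 rose (background 5.65%) and 2 fell (background 8.35%). These counts are near the shares over all genes, so nothing about the neighbourhood is read from them. Pwwp3a (Mum1 in the annotation), which encodes a PWWP-domain protein linked to chromatin and DNA damage and starts 68.1 kb downstream of Midn, had 17.0, 14.6 and 16.7 CPM in NMDA replicates 1, 2 and 3, against 28.1, 24.7 and 22.2 CPM in control replicates 1, 2 and 3. All stimulated libraries lay below all untreated ones. It fell by 0.63 ± 0.10 (log2, SE; adjusted p = 0.00028 by edgeR with the block, 0.088 without it). Abca7, a lipid transporter gene, averaged 5.46 ± 1.44 CPM in NMDA and 8.63 ± 1.12 CPM in control libraries (log2 -0.67 ± 0.16 within pairs; edgeR adjusted p = 0.0086 with the block, 0.23 without it). Cnn2, which encodes an actin-binding calponin, had 16.4, 33.1 and 21.2 CPM in NMDA replicates 1, 2 and 3, against 11.1, 14.9 and 15.6 CPM in control replicates 1, 2 and 3 (log2 0.73 ± 0.12 within pairs; edgeR adjusted p = 0.00084 with the block, 0.24 without it). Beside Cnn2, the 3 tested endothelial and mural markers of 6 listed summed to 70.2 to 133 CPM in NMDA and 54.3 to 72.8 CPM in control libraries, highest in NMDA replicate 2 as Cnn2 was. Most of that sum was Acta2, a mural marker (58.1, 117 and 64.9 CPM in NMDA replicates 1, 2 and 3, against 43.6, 59.8 and 54.2 CPM in control replicates 1, 2 and 3). The endothelial marker Pecam1 was lower in NMDA without overlap (1.07 to 1.21 CPM, against 1.25 to 1.45 CPM in control). Its log2 change was -0.23 ± 0.28 (edgeR adjusted p = 0.76). Cldn5, another endothelial marker, had too few reads to be tested. The part of these markers in the result was not tested.

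The proteasome is the machine to which midnolin delivers its substrates. None of 36 subunit and activator genes passed in edgeR without the block, beside 0.43% of all genes, or with it, beside 14%; 2 had an unadjusted p under 0.05 without it, and DESeq2 and limma-voom called 0. Their log2 changes ran from -0.15 to 0.23 with a median of 0.08, beside -0.01 over all genes. Adrm1, a ubiquitin receptor of the regulatory particle, had the smallest p (log2 0.23 ± 0.09, edgeR adjusted p = 0.31), ahead of the core subunit gene Psmb7 (0.19 ± 0.08) and the ATPase genes Psmc1 (0.19 ± 0.09) and Psmc4 (0.15 ± 0.07). Of 9 listed genes for known midnolin substrates, 6 were tested and 4 rose without the block: Fos (log2 5.13 ± 0.19), Fosb (6.68 ± 0.38), Nr4a1 (2.91 ± 0.12) and Egr1 (2.01 ± 0.13), with edgeR adjusted p of 3.2e-06, 0.00028, 3.2e-06 and 0.00012. Their rise in these libraries was known when the list was written, so the count is no independent evidence. Neurod1 did not pass (0.18 ± 0.26), and Irf4, Gata1 and Pax8 had too few reads to be tested.

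Atp5d had a higher log2 change than any other listed gene of its enzyme. None of 18 other ATP synthase subunit, inhibitor and assembly genes passed in edgeR without the block, beside 0.43% of all genes, or with it, beside 14%; none had an unadjusted p under 0.05 without it, and DESeq2 and limma-voom called 0. Their log2 changes lay between -0.08 and 0.19 with a median of 0.07, all below the 0.34 of Atp5d. The gamma subunit gene Atp5c1, which encodes the stalk partner of the delta subunit, stood at -0.02 ± 0.10 and the catalytic-core gene Atp5a1 at 0.19 ± 0.09 (edgeR adjusted p = 0.95 and 0.40). That comparison was made because Atp5d was chosen, and no test of it is given.

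Among 22 genes around LKB1, 2 kinase genes that LKB1 activates rose without the block, beside 0.376% of all genes. Sik1, a salt-inducible kinase that restrains CREB coactivators, averaged 29.1 ± 1.52 CPM in NMDA and 13.9 ± 1.14 CPM in control libraries (log2 1.06 ± 0.11, edgeR adjusted p = 0.0032). Nuak2, an AMPK-related kinase, averaged 23.7 ± 5.51 CPM in NMDA and 8.76 ± 0.60 CPM in control libraries (1.44 ± 0.17, edgeR adjusted p = 0.0056). Without control replicate 2, 1 of the pair passed. With the block 3 of the 22 rose, beside 5.65% of all genes, and 2 fell, beside 8.35%. Nuak1 also rose (0.43 ± 0.10), and Prkaa2, a catalytic subunit of AMPK (-0.26 ± 0.08), and Mark2, a microtubule affinity-regulating kinase (-0.24 ± 0.07), fell, with edgeR adjusted p of 0.015, 0.034 and 0.038 against 0.32, 0.27 and 0.30 without it. The partners that hold LKB1 in its active complex did not pass in either fit, with Strada at -0.17 ± 0.19, Stradb at -0.01 ± 0.10 and Cab39 at 0.10 ± 0.09. The median of the list was 0.01.

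Cirbp was set beside other RNA-binding proteins with glycine-rich stretches. None of 14 passed in edgeR without the block, beside 0.43% of all genes, and limma-voom called 0. The DESeq2 Wald test called 1, where it called 306 of 13788 genes over all. In edgeR 6 had an unadjusted p under 0.05, a count with no share of all genes beside it. With the block 5 rose, beside 5.65% of all genes, among them Hnrnpa0 (log2 0.40 ± 0.07) and Hnrnpab (0.37 ± 0.07). Their edgeR adjusted p was 0.00096 and 0.0015 with the block and 0.20 and 0.16 without it. The median log2 change of the 14 was 0.16. Rbm3, the closest relative of Cirbp and likewise induced by cold, had 271, 223 and 212 CPM in NMDA replicates 1, 2 and 3, against 255, 216 and 178 CPM in control replicates 1, 2 and 3. It was highest in replicate 1 and its groups overlapped, both as in Cirbp, with a log2 change of 0.12 ± 0.14 (edgeR adjusted p = 0.75; 0.28 with the block).

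**Figure D4:**
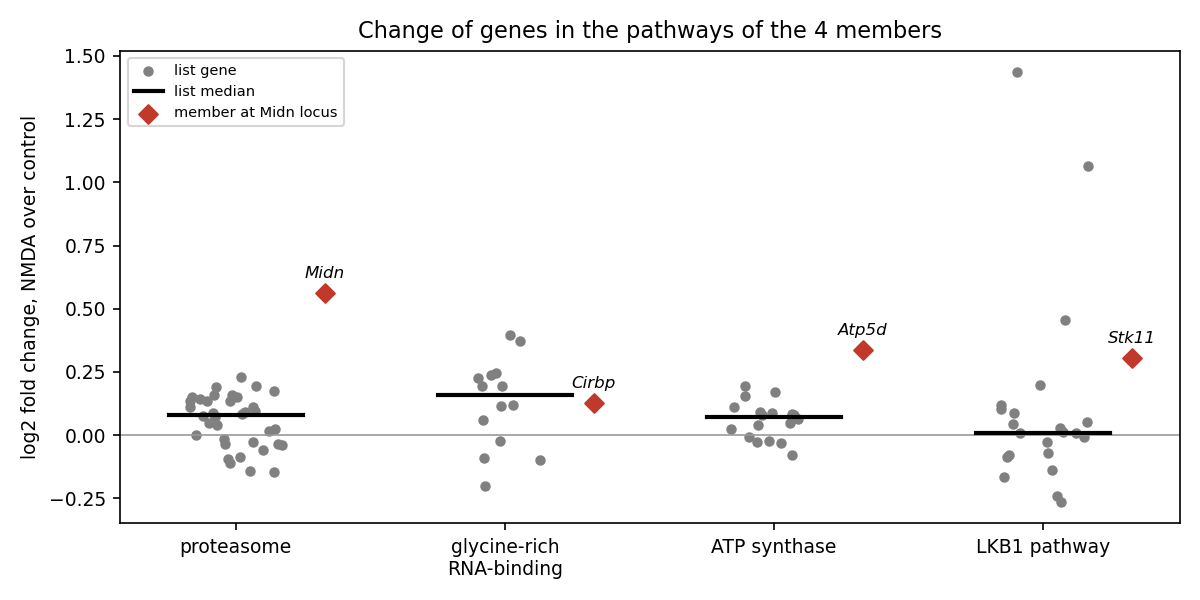
Log2 fold change of NMDA over control for the tested genes of 4 lists (grey points, with the list median as a black bar) beside the member each list belongs with (red diamond, left to right Midn, Cirbp, Atp5d and Stk11). Midn lies above every proteasome gene and Atp5d above every other ATP synthase gene. Both were chosen with their change in this contrast known, so their places are a description only. The 2 highest points of the LKB1 list are Nuak2 and Sik1.

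Likeness of pattern was measured as Pearson r of log2 CPM over the 6 libraries, among 12638 genes averaging at least 1 on that scale. All libraries share the division into NMDA and control and the replicate numbers, so high values are common and no p is given. The 5 genes most like Midn were Bak1 (r = 0.999), Fech (0.996), Dusp16 (0.995), Csrnp1 (0.990) and Fkbp4 (0.987), all higher in NMDA without overlap, with log2 changes from 0.19 (Fech) to 1.80 (Csrnp1). Those most like Cirbp included Rpl7a (r = 0.998), Enho (0.992), Tomm22 (0.990) and Ppp1r1a (0.990), in all of which the groups overlapped. Both sets were picked by r over these same libraries, so whether their groups overlap largely follows from the pick. Among the members r was 0.90 between Midn and Atp5d, 0.90 between Midn and Stk11 and 0.35 between Midn and Cirbp. After the group means were taken out these became 0.04, 0.58 and -0.11.

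The libraries held 15417234 to 18606264 counted reads in NMDA and 17860691 to 19183999 in control. The member with the fewest reads in a library, Stk11 in NMDA replicate 1, had 567, for which counting error alone is 4.2%; this covers counting only, since reads without molecular identifiers are not independent molecules. The extract protocol speaks of 2 biological replicates and 3 are listed per group, so errors measure the spread between these libraries, part of which may be technical. Neuronal markers were abundant, with the 6 pan-neuronal genes summing to 5441 to 6351 CPM in NMDA and 5646 to 6236 CPM in control libraries. These sums overlapped while single markers moved with the block, which called 14% of all genes. Rbfox3 (log2 0.40 ± 0.08) and Tubb3 rose and Camk2a, an excitatory marker, fell, with edgeR adjusted p of 0.0015, 0.019 and 0.0022. The 7 inhibitory neuron markers summed to 577 to 620 CPM in NMDA and 527 to 561 CPM in control libraries, without overlap, and the 7 excitatory markers to 951 to 1141 CPM in NMDA and 1121 to 1253 CPM in control. With the block 1 of 7 inhibitory markers rose, and 1 of 7 excitatory markers rose and 1 fell, beside 5.65% of all genes higher and 8.35% lower. Sums of markers have no such background, so the separation of the inhibitory sums is given as a description. The 7 astrocyte markers summed to 2197 to 3272 CPM in NMDA and 2043 to 2582 CPM in control; 0 passed in edgeR without the block (2 had an unadjusted p under 0.05) and 6 rose with it, beside 5.65% of all genes. The 2 tested microglial markers of 6 summed to 2.35 to 3.04 CPM in NMDA and 2.16 to 3.002 CPM in control libraries. In such bulk samples fewer cells of a type and less RNA per cell cannot be told apart. Whether the make-up of the cultures has a part in the values of the 4 genes was not tested.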

How the data were processed

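The deposited table holds raw counts of reads per gene, made by the authors from stranded poly(A) RNA-seq libraries (RNA integrity number of at least 8, per the labels). Trimmomatic, TopHat and HTSeq are named in the submitters' processing notes, with mm10 and GRCm38.p6 as builds; for versions, annotation and strand setting, the sources used here give nothing. Positions and lengths came from GENCODE M21 on GRCm38, and start sequences from RefSeq.

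Counts were tested with edgeR 4.0.16 (R 4.3.3): low-count filter (minimum count 10, minimum total 15), TMM scaling, robust quasi-likelihood F tests of NMDA over control with no other term, and Benjamini-Hochberg correction over all 14642 genes tested, threshold 0.05. CPM and log2 CPM (prior count 0.5) were computed from the deposited counts. Same-numbered libraries deviated together from their group means (r = 0.52, 0.37 and 0.47 for replicates 1, 2 and 3), which was read as pairing; this comes from the data, not from the labels. The fit with the number as a block has 2 residual degrees of freedom, against 4. Libraries of a group differed beyond counting noise (chi-square per degree of freedom 7.76 to 54.3). Scripts were tested on simulated data.

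Alternatives were DESeq2 1.42.0 size factors and its Wald test, upper quartile scaling, limma-voom (limma 3.58.1), no low-count filter, a minimum of 1 CPM in each library of either group, the block, each library left out, windows of 100 and 500 kb, and mean transcript length. Figures used matplotlib 3.10.9.

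Members, lists and the naming rule were chosen with earlier results of these data known. The rule took the 4 members, genes within 200 kb of Midn that passed in either fit or lay nearest, list genes past the threshold or with the 4 smallest p, and the 5 genes most like Midn and Cirbp; Sbno2, Irf4, Gata1, Pax8, Neurod1, Atp5c1, Rbm3, Strada, Stradb, Cab39, untested window genes and cell type markers were named outside it. Of the list symbols, 2 were matched through RefSeq synonyms. Some genes that this rule names are not reported here.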

Additional observations from a re-analysis of the deposited data

How the results depend on the processing

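The log2 fold changes of the 4 members kept their sign and stayed within 1 SD of the replicate spread under all 13 alternatives. Leaving out each library in turn gave 0.53 to 0.62 for Midn, 0.04 to 0.25 for Cirbp, 0.30 to 0.39 for Atp5d and 0.26 to 0.39 for Stk11, and the other settings gave 0.56 to 0.57, 0.12 to 0.14, 0.34 to 0.35 and 0.30 to 0.32. The change of the log2 ratio of Midn was 0.30 to 0.55 against Cirbp, 0.16 to 0.30 against Atp5d and 0.20 to 0.30 against Stk11 when a library was left out.

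Counts of calls depended more on the setting. Among the other genes within 200 kb of Midn 0 were called in the main setting, 1 by DESeq2's Wald test and 1 without a low-count filter (Pwwp3a in both), 3 with the replicate block, and 0 in windows of 100 and 500 kb and without any single library. Over all genes 63 were called, against 306 by the DESeq2 test, 260 without a filter, 2051 with the replicate block and 20 to 146 when a library was left out. In the glycine-rich RNA-binding list 0 became 1 with the DESeq2 test and 5 with the block, and in the LKB1 list 2 became 5 with the block and 1 to 2 when a library was left out. The midnolin substrate list gave 4 to 5 calls and the proteasome and ATP synthase lists 0 in all settings. The cause of these moves was not tested. Over mean transcript length in place of the exon union, levels were 81.6 CPM per kilobase in NMDA and 55.2 in control for Midn, 95.3 in NMDA and 87.3 in control for Cirbp, 81.7 in NMDA and 64.7 in control for Atp5d and 29.8 in NMDA and 24.2 in control for Stk11. With 3 libraries a group an exact permutation test cannot give a p below 0.1.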
